A study of Homo sapiens with 12 samples.

Results

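In all, 8 genes of the apoptotic protease and TNF receptor machinery were followed in LNCaP-S14 human prostate cancer cells: the TNF receptor family members TNFRSF12A and TNFRSF21, the caspases CASP2, CASP4 and CASP8, the inhibitors of apoptosis BIRC2 and XIAP, and the caspase-like regulator CFLAR. They were chosen by name, with earlier results of these data known, and all of their probes on the array were read. They make up 8 of 16922 genes and 15 of 21834 probes that could be assigned to 1 gene. Total RNA was measured on 12 Illumina bead arrays, on which each probe captures the RNA copies of a transcript and reports them as a fluorescence intensity. The groups were DMSO as vehicle, 40 µM SMIP004, 50 nM bortezomib (BTZ), 500 nM camptothecin (CPT) and 20 µM roscovitine, each with 2 biological samples, and each SMIP004 sample had 2 technical arrays, which were averaged. The arrays of a SMIP004 sample were paired by their titles, and the descriptions number the same 4 arrays differently. The labels call the cells LNCaP and give 24 h for SMIP004 only. LNCaP-S14, a LNCaP line with stable overexpression of SKP2 that all groups share, and 24 h for every compound are stated in the study's methods. The 2 samples of a group are not said to come from separate cultures, so the p-values measure the spread between these samples, which may be technical.

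Caspases are proteases that cut their targets after aspartate and are made as inactive precursors. Ligand-bound receptors of the TNF family with a death domain recruit adaptors and CASP8, whereas other receptors of the family signal through TRAF proteins, and inhibitors of apoptosis restrain both caspases and the receptor complexes. Among the chosen receptors TNFRSF21 carries a death domain and TNFRSF12A, the receptor of the cytokine TWEAK, does not, so the term death receptor holds for 1 of them only. SMIP004 is a small molecule that induces apoptosis of prostate cancer cells, BTZ inhibits the proteasome, CPT inhibits a DNA topoisomerase and roscovitine inhibits cyclin-dependent kinases.

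The arrays had mean intensities of 473 to 802, and each detected 8737 to 9909 of 24526 probes, which here means a detection p under 0.01 against the negative controls of that array. DMSO and SMIP004 lay on slide 1 and BTZ, CPT and roscovitine on slide 2, so for these 3 compounds a difference from DMSO or from SMIP004 and a shift between slides cannot be told apart. The roscovitine samples stood apart from each other: 1401 of 10149 tested probes were at least 2-fold higher or lower in one than in the other, compared with 1 to 13 probes in the other groups. All groups share 1 estimate of the spread per probe, so calls of the members that turn on these samples are given without them as well. Of 9 LNCaP markers with a probe, 8 were detected on both DMSO arrays, 5 on all SMIP004 arrays, 5 with BTZ, 6 with CPT and 7 with roscovitine. The summed normalized level of these 9 markers was 16800 to 17400 in DMSO, 7480 to 7910 with SMIP004, 6260 to 6270 with BTZ, 12600 to 12800 with CPT and 21200 to 21300 with roscovitine. Of the markers of other cell types, 0 of 4 for leukocytes, 0 of 4 for fibroblasts, 0 of 2 for basal epithelium and 1 of 3 for endothelium were detected on both DMSO arrays. CD14 was detected on all arrays with BTZ and with CPT, and COL1A1 on all arrays with SMIP004, BTZ and CPT. The summed leukocyte list stood at 150 to 167 in DMSO, 170 to 172 with SMIP004 and 307 to 335 with BTZ. It stood at 189 to 203 with CPT and 147 to 194 with roscovitine. The fibroblast list stood at 125 to 161 in DMSO, 263 to 269 with SMIP004 and 233 to 299 with BTZ. With CPT it stood at 170 to 178 and with roscovitine at 125 to 153. The part of these shifts in the results below was not tested.

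The start sites of the members that moved most with SMIP004 are shown so that their upstream sequence can be read beside their levels. RefSeq windows of the assembly GRCh38.p14, from 250 bases before to 50 after a start site, were given for 7 of the 8 members (16 windows), not for TNFRSF12A. Each was searched on both strands for a cAMP response element (TGACGTCA), an AP-1 element (TGANTCA), a composite element of ATF4 and C/EBP (TGATGNAA) and the kappa-B consensus. These occur in 1.85%, 7.71%, 3.62% and 5.91% of all 35116 windows of this length. Capitals mark a match, and the windows lie at chr11:102346964-102347263 (plus strand, BIRC2), chr11:104968525-104968824 (minus strand, CASP4), chr6:47309856-47310155 (minus strand, TNFRSF21) and chr7:143288101-143288400 (plus strand, CASP2, the first of 2 windows).
BIRC2: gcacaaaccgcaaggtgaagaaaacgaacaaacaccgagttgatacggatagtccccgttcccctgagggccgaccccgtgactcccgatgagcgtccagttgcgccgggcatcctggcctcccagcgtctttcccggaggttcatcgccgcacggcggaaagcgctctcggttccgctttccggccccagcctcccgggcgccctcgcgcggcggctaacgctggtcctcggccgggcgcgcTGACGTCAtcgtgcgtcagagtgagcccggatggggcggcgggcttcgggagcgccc
CASP4: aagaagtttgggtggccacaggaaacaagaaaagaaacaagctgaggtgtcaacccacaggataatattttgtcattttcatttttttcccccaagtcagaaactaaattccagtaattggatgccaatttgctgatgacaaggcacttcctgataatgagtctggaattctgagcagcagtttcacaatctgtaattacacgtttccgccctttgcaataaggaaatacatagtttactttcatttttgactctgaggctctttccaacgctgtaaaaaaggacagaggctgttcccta
TNFRSF21: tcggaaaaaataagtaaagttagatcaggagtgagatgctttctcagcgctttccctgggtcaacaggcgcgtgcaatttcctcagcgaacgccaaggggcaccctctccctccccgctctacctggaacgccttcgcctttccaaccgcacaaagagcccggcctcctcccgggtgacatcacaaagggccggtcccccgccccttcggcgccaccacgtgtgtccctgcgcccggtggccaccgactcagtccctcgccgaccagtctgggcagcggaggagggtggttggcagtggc
CASP2: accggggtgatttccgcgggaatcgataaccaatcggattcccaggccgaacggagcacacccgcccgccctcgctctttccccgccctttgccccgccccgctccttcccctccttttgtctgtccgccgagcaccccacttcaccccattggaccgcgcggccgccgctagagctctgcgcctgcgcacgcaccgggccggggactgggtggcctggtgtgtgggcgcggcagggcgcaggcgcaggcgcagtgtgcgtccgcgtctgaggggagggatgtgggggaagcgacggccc
BIRC2 held the cAMP response element, which began 7 bases before the start site, and its second window overlaps the first and holds the same match. Among the windows not shown, 1 of 4 for CFLAR held the kappa-B consensus, another held an AP-1 element, and 2 of 3 for CASP8 held an AP-1 element. No match was found in the windows of CASP4, TNFRSF21, CASP2 and XIAP. A match is a description of these letters and not evidence that a factor binds there.

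Of the 8 genes, 6 were tested, through 7 of their 15 probes. A probe was tested where it was detected on every array of at least 1 group. TNFRSF12A, TNFRSF21, BIRC2, 1 CASP4 probe and 2 CASP2 probes were detected on all 12 arrays. The CFLAR probe was detected on 6 arrays, namely 4 of 4 with SMIP004, 1 of 2 with CPT, 1 of 2 with BTZ and none with DMSO or roscovitine, so it was tested only because of its level with SMIP004. CASP8, the initiator caspase of death receptor complexes, was not detected by any of its 4 probes on any array, with detection p between 0.0482 and 0.982. XIAP, which binds and blocks active caspases, had 1 probe, with detection p between 0.0377 and 0.173 and intensities of 66.6 to 103.8, and was not detected on any array either. Another CASP2 probe (ILMN_2296057) and 2 further CASP4 probes (ILMN_1778059 and ILMN_1774585) were detected on 0 of 12 arrays. These 8 probes hold only bounds, and no fold change is given for them. When probes were tested without the detection filter, the CASP8 probe ILMN_1787749 passed as higher with SMIP004 (adjusted p = 0.00571) and roscovitine (adjusted p = 0.0462). ILMN_2377733 passed with BTZ (adjusted p = 0.0203). All of these calls lay between signals that missed the detection threshold.

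**Figure D1:**
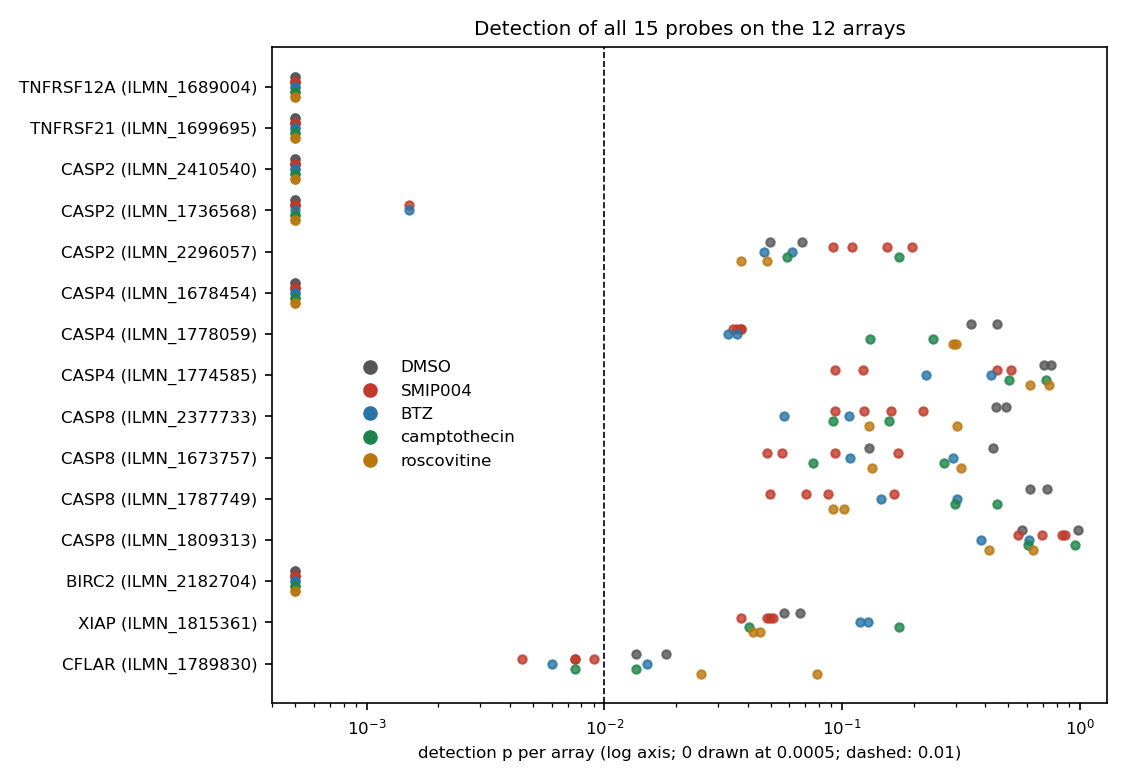
Detection p of each of the 15 probes on the 12 arrays, on a log axis with values of 0 drawn at 0.0005 and the threshold of 0.01 as a dashed line; each point is 1 array, coloured by group. The probes of TNFRSF12A, TNFRSF21 and BIRC2, 2 of CASP2 and 1 of CASP4 lie left of the line on every array, CFLAR straddles it, and the 4 CASP8 probes and the XIAP probe lie right of it on every array.

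With SMIP004, 4 member genes rose (TNFRSF12A, TNFRSF21, CASP4, BIRC2), CASP2 fell, CFLAR did not pass and CASP8 and XIAP were not detected. Over all 10149 probes, 28.8% were called higher and 29.5% lower in this comparison (limma, adjusted p under 0.05). The median log2 change was 2.09 over the 6 tested members and -0.01 over all tested probes. The members were chosen with earlier results of these data known, so this contrast is a description and not a test. BTZ raised 5 and lowered 1 of the 6 (background 32.4% higher and 32.2% lower), and CPT raised 3 and lowered 1 (31.7% and 31.4%). With roscovitine 1 rose and none fell (4.02% and 4.52%), and without any 1 DMSO, SMIP004 or CPT sample 0 passed. Without roscovitine sample 1 the differences were 1.72 for TNFRSF21, 0.39 for BIRC2 and -0.99 for CFLAR, the last between undetected signals. The count of all probes that passed turned on that sample as well. The median log2 change of the 6 tested members was 1.19 with BTZ, 0.75 with CPT and 0.06 with roscovitine. The 4 comparisons share the DMSO samples. In RNA from whole cultures, fewer cells that express a gene and less RNA per cell cannot be told apart.

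**Figure D2:**
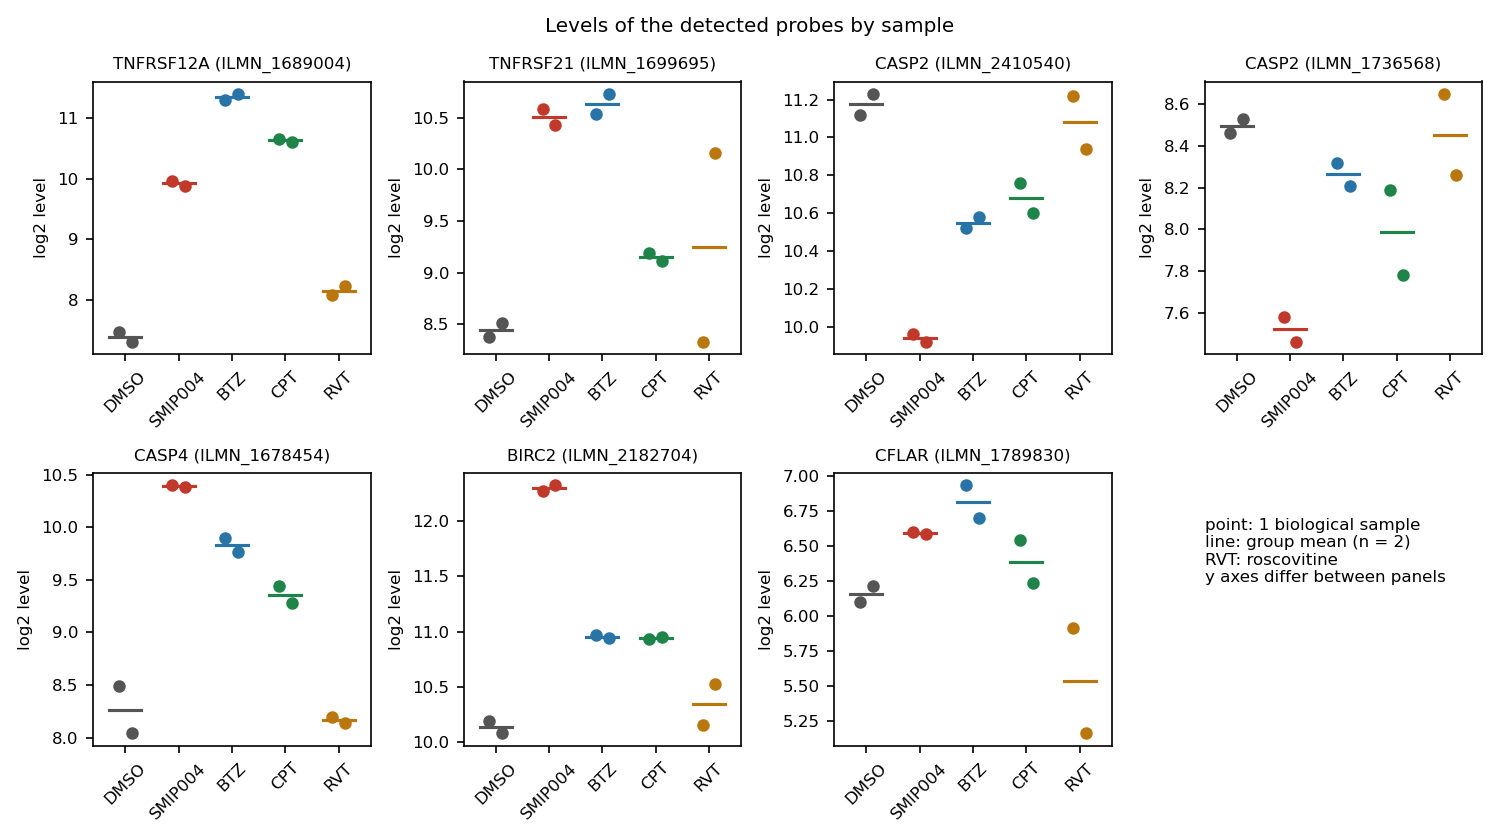
Normalized log2 level of the 7 detected probes in the 10 biological samples, in groups of 2; points are samples, lines are group means, and the y axes differ between panels. BIRC2 and CASP4 were highest with SMIP004, TNFRSF12A with BTZ, both CASP2 probes were lowest with SMIP004, and the roscovitine samples of TNFRSF21 lie at 8.33 and 10.16.

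TNFRSF12A, which signals through TRAF proteins, had the largest change of the members in the 3 comparisons of SMIP004, BTZ and CPT with DMSO. Its log2 levels were 7.47 and 7.30 in DMSO, 9.96 and 9.88 with SMIP004, 11.30 and 11.40 with BTZ, 10.66 and 10.61 with CPT, and 8.07 and 8.22 with roscovitine. No 2 groups overlapped. SMIP004 raised it by 2.53 on the log2 scale (standard error 0.123, adjusted p = 4.53e-06), which is 5.78-fold, BTZ by 3.97 (adjusted p = 1.32e-06), or 15.6-fold, and CPT by 3.25 (adjusted p = 1.85e-06), or 9.49-fold. The groups ranked BTZ, CPT, SMIP004, roscovitine, DMSO, and every neighbouring pair in that order differed in limma's test. BTZ exceeded CPT by 0.72 (adjusted p = 0.00108) and CPT exceeded SMIP004 by 0.72 (adjusted p = 0.00118). The step from DMSO to roscovitine was 0.76 (adjusted p = 0.0207). That last call was lost without either DMSO sample (0.133 without sample 1, 0.126 without sample 2), without either SMIP004 sample (adjusted p = 0.0617) and without either CPT sample (adjusted p = 0.0524).

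TNFRSF21, the receptor with a death domain, rose with SMIP004 and BTZ to about the same level. Its log2 levels were 8.38 and 8.51 in DMSO, 10.58 and 10.43 with SMIP004, 10.54 and 10.73 with BTZ, 9.19 and 9.11 with CPT, and 8.33 and 10.16 with roscovitine. The SMIP004 and BTZ samples overlapped with each other and lay above all DMSO and CPT samples, whereas the roscovitine samples lay on either side of DMSO and CPT. The rise was 2.06 with SMIP004 (standard error 0.474, adjusted p = 0.00631) and 2.19 with BTZ (adjusted p = 0.00403). The difference between these 2 compounds was -0.13 (95% interval -1.22 to 0.96, adjusted p = 0.846). With CPT the difference from DMSO was 0.71 (adjusted p = 0.222), and without the roscovitine samples it passed (0.71, standard error 0.113, adjusted p = 0.000125). With roscovitine it was 0.81 (adjusted p = 0.263), but 1.72 without roscovitine sample 1 (adjusted p = 1.27e-06) and -0.11 without sample 2, so 1 sample decides it. SMIP004 exceeded CPT by 1.35 (adjusted p = 0.0342). That call was lost without any 1 DMSO, SMIP004, BTZ or CPT sample (adjusted p 0.0547 to 0.125) and without the detection filter (adjusted p = 0.0695), while without the roscovitine samples its adjusted p was 3.91e-07. BTZ exceeded CPT by 1.48 (adjusted p = 0.0237, and 1.71e-07 without the roscovitine samples), a call lost without any 1 BTZ or CPT sample (adjusted p 0.0719 to 0.104).

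CASP2, an initiator caspase that is activated on the PIDD1 and CRADD platform, was the member that fell. The log2 levels of its brighter probe (ILMN_2410540) were 11.12 and 11.23 in DMSO, 9.96 and 9.92 with SMIP004, 10.52 and 10.58 with BTZ, 10.76 and 10.60 with CPT, and 11.22 and 10.94 with roscovitine. The SMIP004 samples were the lowest, and only roscovitine overlapped with DMSO. The level fell by 1.24 with SMIP004 (standard error 0.134, adjusted p = 0.000146), fell by 0.62 with BTZ (adjusted p = 0.00395) and fell by 0.50 with CPT (adjusted p = 0.0124). The CPT call was lost without DMSO sample 2 (adjusted p = 0.0755) or CPT sample 2 (adjusted p = 0.0773). SMIP004 differed from BTZ by -0.61 (adjusted p = 0.00635) and from CPT by -0.74 (adjusted p = 0.00154), calls that median scaling ended (adjusted p = 0.115 and 0.0827), while BTZ and CPT differed by -0.13 (95% interval -0.44 to 0.18, adjusted p = 0.432).

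The second CASP2 probe (ILMN_1736568) had log2 levels of 8.46 and 8.53 in DMSO, 7.58 and 7.46 with SMIP004, 8.32 and 8.21 with BTZ, 8.19 and 7.78 with CPT, and 8.65 and 8.26 with roscovitine. It too was lowest with SMIP004, where it fell by 0.97 (standard error 0.182, adjusted p = 0.00233). With BTZ its change was -0.23 (adjusted p = 0.301), so the 2 probes differ in their call there. With CPT it fell by 0.51 (adjusted p = 0.0394), a call that was lost without CPT sample 2 (-0.30, adjusted p = 0.241) and without any 1 DMSO, SMIP004 or BTZ sample (adjusted p 0.0596 to 0.146), and without the detection filter (adjusted p = 0.0544). SMIP004 and CPT differed by -0.47 for this probe (adjusted p = 0.0512), a difference that passed without the roscovitine samples (adjusted p = 0.00752) and with the SMIP004 arrays paired by their descriptions (adjusted p = 0.0485). Neither probe passed with roscovitine (-0.10, adjusted p = 0.637, for the brighter and -0.04, adjusted p = 0.902, for the second).

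CASP4, an inflammatory caspase that binds lipopolysaccharide, rose where the brighter CASP2 probe fell. Its detected probe had log2 levels of 8.49 and 8.04 in DMSO, 10.40 and 10.38 with SMIP004, 9.90 and 9.77 with BTZ, 9.44 and 9.28 with CPT, and 8.20 and 8.14 with roscovitine. The samples of SMIP004, BTZ and CPT fell into 3 ranges that did not overlap, all above DMSO, and the roscovitine samples lay within the DMSO range. SMIP004 raised the level by 2.12 (standard error 0.162, adjusted p = 2.82e-05), or 4.35-fold, BTZ by 1.56 (adjusted p = 9.57e-05) and CPT by 1.09 (adjusted p = 0.000743). The difference was -0.10 with roscovitine (95% interval -0.47 to 0.28, adjusted p = 0.697). SMIP004 exceeded CPT by 1.03 (adjusted p = 0.000704) and BTZ by 0.56 (adjusted p = 0.0216), but the call against BTZ was lost without any 1 of the 4 samples compared (adjusted p 0.0589 to 0.114). BTZ exceeded CPT by 0.47 (adjusted p = 0.0311), a call lost without any 1 BTZ, CPT or SMIP004 sample (adjusted p 0.0553 to 0.147). Without the roscovitine samples these calls against BTZ and between BTZ and CPT had adjusted p of 0.00403 and 0.00876. With the detection filter removed, the undetected CASP4 probe ILMN_1778059 passed as higher with SMIP004 (adjusted p = 0.000363) and BTZ (adjusted p = 9.94e-05). Its signals missed the detection threshold on every array. Detection p was 0.0346 to 0.0377 with SMIP004, 0.0331 to 0.0361 with BTZ and 0.349 to 0.447 in DMSO.

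BIRC2, a ubiquitin ligase of TNF receptor complexes, rose more with SMIP004 than with any of the other compounds. Its log2 levels were 10.19 and 10.08 in DMSO, 12.27 and 12.32 with SMIP004, 10.97 and 10.94 with BTZ, 10.93 and 10.95 with CPT, and 10.16 and 10.53 with roscovitine. The SMIP004 samples lay apart from all others, the BTZ and CPT samples overlapped with each other, and the roscovitine samples overlapped with DMSO. The rise was 2.16 with SMIP004 (standard error 0.142, adjusted p = 1.55e-05), or 4.46-fold, 0.81 with BTZ (adjusted p = 0.00136) and 0.80 with CPT (adjusted p = 0.00176). SMIP004 exceeded BTZ by 1.34 (95% interval 1.02 to 1.67, adjusted p = 0.000198), CPT by 1.36 (adjusted p = 7.51e-05) and roscovitine by 1.95 (adjusted p = 2.47e-05). BTZ and CPT differed by 0.01 (95% interval -0.31 to 0.34, adjusted p = 0.94). With roscovitine the difference from DMSO was 0.21 (adjusted p = 0.328), and 0.39 without roscovitine sample 1 (adjusted p = 0.0169). After scaling to the array median the CPT change was 0.43 (adjusted p = 0.0505). Its overlapping start-site windows are the ones that hold a cAMP response element.

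CFLAR, a relative of CASP8 without protease activity that limits CASP8 activation, was the dimmest of the tested members. Its log2 levels were 6.10 and 6.21 in DMSO, 6.60 and 6.58 with SMIP004, 6.93 and 6.70 with BTZ, 6.54 and 6.23 with CPT, and 5.91 and 5.16 with roscovitine. All DMSO and roscovitine arrays were below the detection threshold, so these 2 groups hold only bounds. Against DMSO, the difference was 0.66 with BTZ (standard error 0.236, adjusted p = 0.037), with the probe detected on 1 of the 2 BTZ arrays, so no fold is given. The call was lost without any 1 DMSO, SMIP004 or BTZ sample (adjusted p 0.0597 to 0.173) after median scaling (0.44, adjusted p = 0.163) and without the detection filter (adjusted p = 0.0625). With SMIP004 the difference was 0.44 (adjusted p = 0.144), at least 1.09-fold when DMSO is set to the lowest signal detected on its arrays, and without the roscovitine samples it passed (standard error 0.128, adjusted p = 0.00867). BTZ and CPT differed by 0.43 (adjusted p = 0.144), and this passed without the roscovitine samples (adjusted p = 0.00913). The difference from DMSO was 0.23 with CPT (adjusted p = 0.41). The comparison with roscovitine (adjusted p = 0.119) lay between signals that missed the detection threshold (detection p from 0.0136 to 0.0783).

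**Figure D3:**
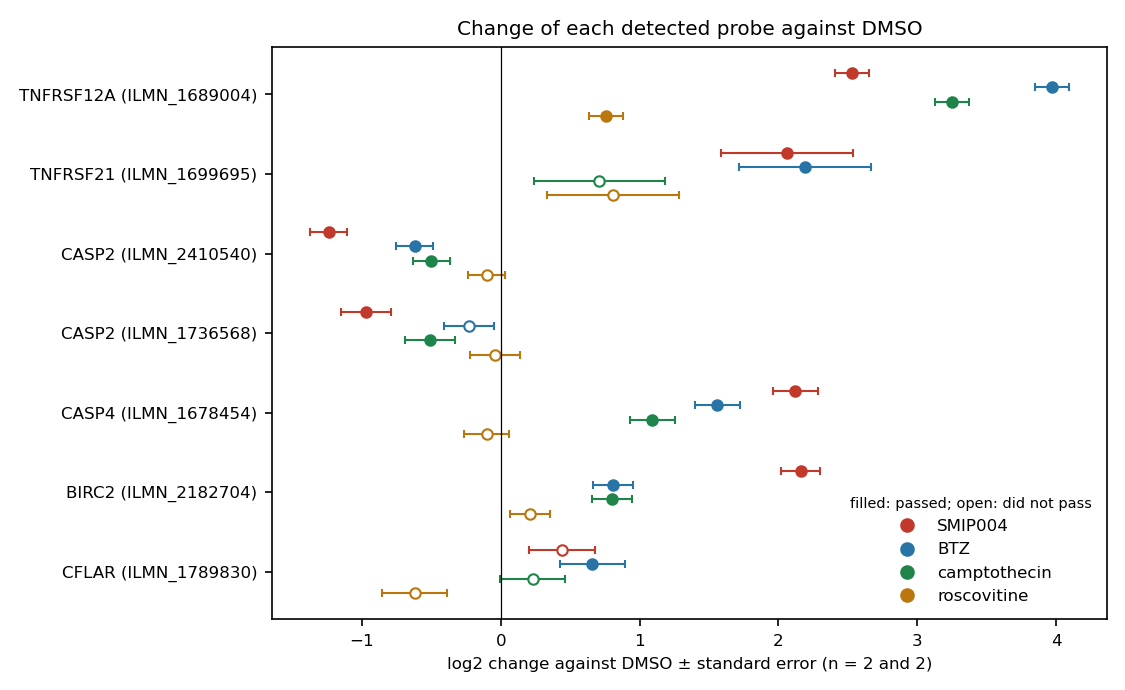
Log2 change of each of the 7 detected probes against DMSO, with standard errors from the fit over all groups (n = 2 and 2); filled points passed an adjusted p of 0.05. SMIP004 has the largest change for BIRC2 (2.16), CASP4 (2.12) and both CASP2 probes (-1.24 and -0.97), and BTZ the largest for TNFRSF12A (3.97).

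The compounds were then compared directly with each other, gene by gene. SMIP004 lay on another slide than BTZ, CPT and roscovitine, so its differences from them cannot be told apart from a shift between slides, whereas the 3 other compounds shared a slide. SMIP004 and BTZ differed in 4 of 6 tested members, with BIRC2 and CASP4 higher and TNFRSF12A (-1.44, adjusted p = 7.43e-05) and CASP2 lower with SMIP004. In this comparison 49% of all probes passed. SMIP004 and CPT differed in 5 members (65.7% of all probes), and SMIP004 and roscovitine in 5 (55.7%). BTZ and CPT differed in 3 members, TNFRSF12A, TNFRSF21 and CASP4, all higher with BTZ (65.3%), and in 1 without any 1 BTZ or CPT sample. BTZ and roscovitine differed in 6 (59.9%) and CPT and roscovitine in 5 (47.8%), or 3 without either CPT sample. Each of the 3 counts against roscovitine includes CFLAR, which was undetected with roscovitine and tested only because of its level with SMIP004. Its difference between SMIP004 and roscovitine is at least 1.01-fold. With these shares of all probes passing, the counts of members are not set apart from the background. Across the 10 samples the levels of BIRC2 and the brighter CASP2 probe had a Pearson r of -0.986, those of CASP2 and CASP4 one of -0.941, and those of BIRC2 and CASP4 one of 0.901. These correlations describe 5 groups of 2 samples measured on the same arrays.

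Over 8782 other genes and the 10 samples, the genes whose levels were most like those of BIRC2 were ZNF213 (Pearson r = 0.993), MERTK (0.987) and DXO (0.986). For TNFRSF12A they were RAB30 (0.993), SMOX (0.992) and DVL3 (0.988). CASP4 was followed most closely by CSRNP1 (0.986), KRT80 (0.981) and RCBTB2 (0.973), and TNFRSF21 by REV3L (0.989), CHIC1 (0.985) and MED10 (0.983). EFHD2 (0.988), NMT2 (0.987) and FGFRL1 (0.984) were nearest to CASP2. CFLAR, whose levels lay near the detection threshold, had lower values, with EIF4E3 at 0.913, FAM107B at 0.911 and IFIH1 at 0.91.

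The rest of the pathway was read from 6 lists, each gene through its brightest tested probe. A gene undetected in DMSO could be tested only through its level with a compound. Its higher call there is a description and not a test, and so are counts and medians that include it. Among the caspases, 5 were tested and 4 were not detected. With SMIP004 the 2 members CASP4 and CASP2 were the ones that passed, and CASP6 (-0.43, adjusted p = 0.229) and CASP9 (0.05, adjusted p = 0.825) did not. Without the roscovitine samples CASP6, detected on 1 of 4 SMIP004 arrays, passed as lower too (adjusted p = 0.00956), which made 2 caspases lower in place of 1. In that fit 7602 of all 10149 probes passed with SMIP004, in place of 5916. CASP1 was not detected with DMSO or SMIP004. CPT raised 3 caspases, while 31.7% of all probes were higher with CPT. Among the 3 was CASP1, the caspase that matures interleukin-1 beta, which rose by 2.54 (adjusted p = 7.06e-06). CASP1 was detected with CPT only, at log2 levels of 7.25 and 7.55, which is at least 1.91-fold above DMSO. It was therefore tested only because of its level with CPT, and its call and its place among the 3 are descriptions. Of 8 proteins with a BIR domain 3 were tested, and BIRC3 had no probe assigned to 1 gene. BIRC5, the mitotic protein survivin, fell by 1.95 with SMIP004 (adjusted p = 0.00552), fell by 2.94 with BTZ (adjusted p = 0.000585) and fell by 2.44 with CPT (adjusted p = 0.00181), where BIRC2 rose. BIRC5 lay at 10.63 and 10.73 in DMSO and at 8.75 and 8.72 with SMIP004. Its roscovitine samples lay at 10.11 and 8.43. The third tested gene, BIRC6, was detected on 1 of 2 DMSO arrays. BIRC6 rose with BTZ (0.60, adjusted p = 0.00838) and fell with CPT (-1.52, adjusted p = 0.000107), where it was undetected. With SMIP004 its difference was -0.21 (adjusted p = 0.256).

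A further list of 7 genes held parts of the apoptosome, proteins that oppose caspase inhibitors and, unlike these, the apoptosis repressor NOL3. Of the 7, 5 were tested. SMIP004 lowered 1 of the 5, NOL3, a repressor of apoptosis with a CARD domain, (-1.68, adjusted p = 0.000202), from 8.69 and 8.71 in DMSO to 6.87 and 7.18. BTZ lowered 4 (NOL3 by at least 3.66-fold) and raised none. Over all probes, 29.5% were lower with SMIP004, 32.2% with BTZ and 31.4% with CPT. CPT raised APAF1, the scaffold of the apoptosome, by 2.03 (adjusted p = 0.000941), from 7.33 and 7.43 to 9.21 and 9.62. CPT also lowered HTRA2, a mitochondrial protease (-0.62, adjusted p = 0.0135), a call lost without DMSO sample 1 or CPT sample 1 (adjusted p up to 0.0928). Without the roscovitine samples, 3 of the 5 passed as lower with SMIP004, 5 with BTZ and 2 with CPT. Of all 10149 probes, 7602, 7878 and 7738 then passed in either direction, in place of 5916, 6549 and 6408. The counts of genes lowered by BTZ ran from 1, without DMSO sample 1, to 5 when 1 sample was left out.

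Of 29 TNF receptors 12 were tested. SMIP004 raised 5 and lowered 1, BTZ raised 9 and lowered 1, CPT raised 8 and lowered 1, and roscovitine raised 1. The roscovitine count turned on which samples were kept, as did the count of all probes that passed. Over all probes, 28.8% were higher and 29.5% lower with SMIP004, 32.4% and 32.2% with BTZ, 31.7% and 31.4% with CPT, and 4.02% and 4.52% with roscovitine. Without the roscovitine samples 7602 of the 10149 probes passed with SMIP004, in place of 5916. The median log2 change of the tested receptors was 0.38 with SMIP004, 0.85 with BTZ and 1.34 with CPT, against -0.01, 0.01 and 0 over all tested probes. The list was chosen with earlier results of these data known, so this contrast is a description as well. FAS and TNFRSF14 were tested only because of their levels with CPT, TNFRSF9 only because of its level with SMIP004. TNFRSF10D was tested only through BTZ and CPT. These genes raise the counts and medians of the compounds that let them in. Beside the 2 members, TNFRSF9, a costimulatory receptor of T cells, passed with SMIP004 (2.42, adjusted p = 7.16e-06). It was detected with SMIP004 only, at 7.29 and 7.24 and at least 1.74-fold above DMSO. TNFRSF10B, a death domain receptor of TRAIL, passed with SMIP004 (1.42, adjusted p = 5e-04), BTZ (2.06, adjusted p = 6.39e-05) and CPT (1.53, adjusted p = 0.000368). TNFRSF1A, the death domain receptor of TNF, passed with SMIP004 (0.92, adjusted p = 0.00058), BTZ (1.08, adjusted p = 0.000213) and CPT (0.58, adjusted p = 0.00557). TNFRSF10A differed by -0.50 with SMIP004 (adjusted p = 0.304, or 0.00132 without the roscovitine samples). It rose with BTZ (1.36, adjusted p = 0.0155) and CPT (2.06, adjusted p = 0.0025). FAS was detected with CPT only (2.14, adjusted p = 3.74e-05, at least 1.84-fold). TNFRSF10D was not detected with DMSO or SMIP004 and passed with BTZ (2.71, adjusted p = 0.00257) and CPT (3.57, adjusted p = 0.00077). TNFRSF14, a receptor of the ligand TNFSF14, was detected with CPT only, at 10.01 and 9.95 (4.61, adjusted p = 2.85e-06; at least 11.5-fold). TNFRSF19 fell by 2.73 with SMIP004 (adjusted p = 5.51e-06), fell by 2.85 with BTZ (adjusted p = 5.45e-06) and fell by 1.75 with CPT (adjusted p = 3.97e-05), from 12.19 and 12.42 in DMSO to 9.52 and 9.64 with SMIP004. It was the 1 receptor that fell with each of these compounds. Without the roscovitine samples the counts with SMIP004 were 6 higher and 3 lower, and without DMSO sample 1 BTZ raised 6.

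Of 18 TNF ligands 5 were tested. LTA was tested only because of its level with SMIP004, and TNFSF10 only because of its level with CPT, so their higher calls there are descriptions. SMIP004 raised TNFSF4, a costimulatory ligand, by 2.20 (adjusted p = 0.000201), from 7.13 and 7.26 to 9.37 and 9.42, whereas CPT lowered it (-1.24, adjusted p = 0.00349). LTA, lymphotoxin alpha, passed with SMIP004 (1.26, adjusted p = 0.000851; at least 1.15-fold) and BTZ (1.57, adjusted p = 0.00023; detected on 1 of 2 BTZ arrays) and was not detected in DMSO. TNFSF14 fell by 0.40 with SMIP004 (adjusted p = 0.0191), a call lost without DMSO sample 1 or SMIP004 sample 1 (adjusted p up to 0.145). TNFSF10, the ligand TRAIL, was detected with CPT only (2.00, adjusted p = 1.67e-05; at least 1.66-fold). Its lower call with BTZ (adjusted p = 0.0264) lay between undetected signals and was lost without any 1 DMSO, SMIP004 or BTZ sample.

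Of 26 adaptors, kinases and regulators of receptor complexes 19 were tested, CFLAR among them. TNFAIP3 and TRAF6 were undetected in DMSO and were tested only because of their levels with compounds, so their higher calls are descriptions. SMIP004 raised 10 and lowered 1, BTZ raised 12 and lowered 2, and CPT raised 10 and lowered 2. The shares of all probes were 28.8% higher and 29.5% lower with SMIP004, 32.4% and 32.2% with BTZ, and 31.7% and 31.4% with CPT. The count raised by SMIP004 ran from 4, without SMIP004 sample 1, to 14 without roscovitine sample 1, and the count lowered by it from 0 to 2. TNFAIP3, a ubiquitin-editing enzyme that restrains NF-kappa-B, was not detected in DMSO and passed with SMIP004 (2.43, adjusted p = 0.000482; at least 2.48-fold) and CPT (2.67, adjusted p = 0.000327; at least 2.93-fold). With BTZ it passed as well (1.57, adjusted p = 0.00382), detected on 1 of 2 arrays. TRAF6, a ubiquitin ligase, passed with SMIP004 (1.73, adjusted p = 0.000281; at least 3.03-fold), BTZ (3.02, adjusted p = 1.92e-05; at least 7.41-fold) and CPT (1.48, adjusted p = 0.000644; at least 2.54-fold). OTULIN, a deubiquitinase of linear chains, fell by 0.51 with SMIP004 (adjusted p = 0.0267), a call lost without DMSO sample 2 or either SMIP004 sample (adjusted p up to 0.158), and rose with BTZ (0.97, adjusted p = 0.00105) and CPT (0.53, adjusted p = 0.0204). CRADD, the adaptor of CASP2, fell by 0.82 with BTZ (adjusted p = 0.000764) and fell by 1.35 with CPT (adjusted p = 8.57e-05). The brighter CASP2 probe fell with both as well, but the second did not pass with BTZ (-0.23, adjusted p = 0.301). The calls of both CASP2 probes with CPT were lost without some single samples. With SMIP004 the difference of CRADD was -0.24 (adjusted p = 0.139). PIDD1, the other part of that platform, rose by 2.54 with CPT (adjusted p = 0.000143), and its difference was 0.04 with SMIP004 (adjusted p = 0.92) and -0.07 with BTZ (adjusted p = 0.837).

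**Figure D4:**
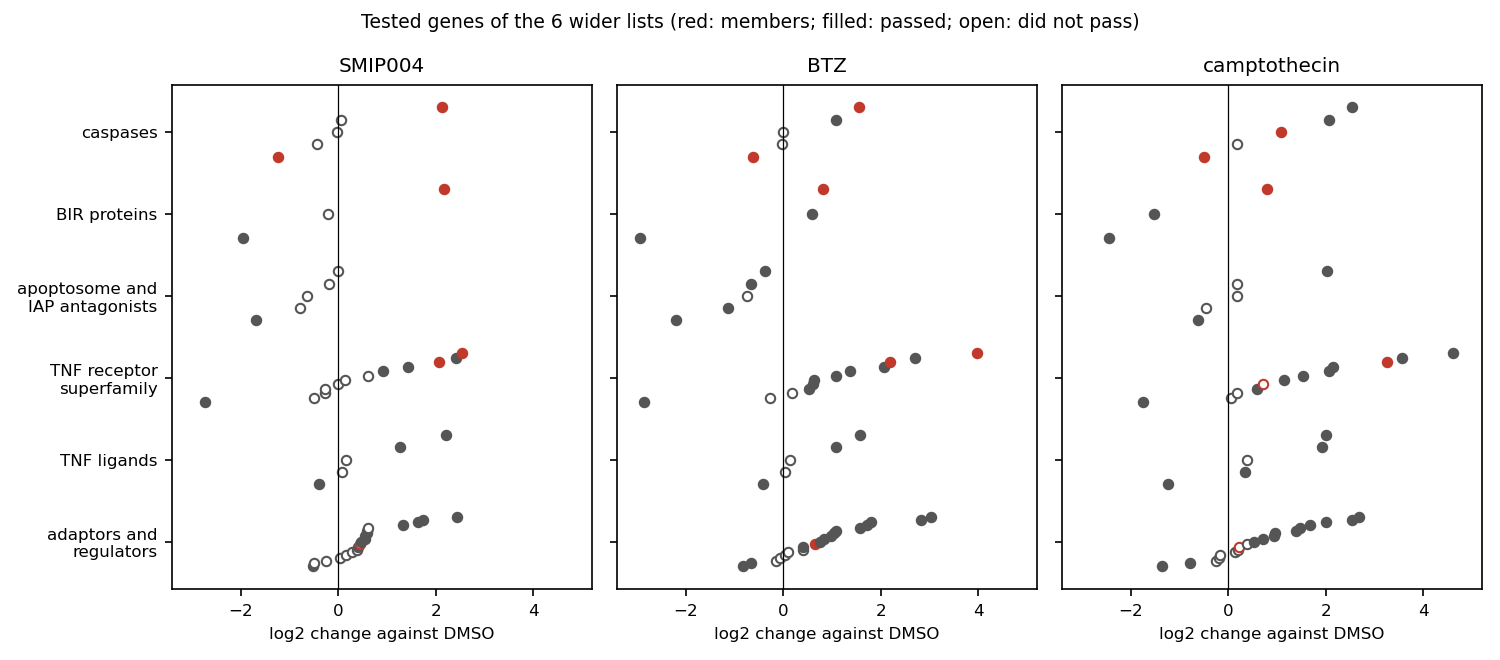
Log2 change against DMSO of the tested genes of the 6 lists for SMIP004, BTZ and CPT; each point is 1 gene, red points are members, filled points passed an adjusted p of 0.05, and the vertical spread within a list only separates points. Among 12 TNF receptors, 5 rose with SMIP004, 9 with BTZ and 8 with CPT, and 1 fell with each.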

How the data were processed

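RNA of 10 biological samples in 5 groups was measured on 12 Illumina bead arrays. Groups were taken from the labels. The authors summarized bead signals into 1 intensity per probe and array, neither background-corrected nor normalized. The detection p-value deposited beside each intensity was computed by the authors' software against negative controls. The authors also deposited quantile-normalized log2 values, which rank probes as the intensities do and served as an alternative.

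The neqc function of limma 3.58.1, run in R 4.3.3, corrected the intensities for background through the detection p-values, added an offset of 16, applied quantile normalization and returned log2 levels. Probes assigned to 1 gene were kept where all arrays of 1 or more groups had a detection p under 0.01 (10149 probes, 8783 genes). 2692 probes were not named here, and 99.9% of gene identifiers matched GRCh38.p14. Technical arrays were averaged, limma fitted group means to all kept probes in 1 linear model, and p-values were adjusted by the Benjamini-Hochberg method over all probes of a contrast (5 residual and 3.01 prior degrees of freedom). A change is a difference of log2 values and understates the change of dim probes. A gene was counted by its brightest kept probe. A group undetected on all its arrays gives a bound, for which each array's signal was raised to the lowest detected signal if lower. The number of arrays limits the precision. The fit was tested on simulated data. Plots were drawn with matplotlib 3.10.9 in Python 3.11.15.

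The members and lists were chosen with earlier results of these data known. From the lists, the 2 largest rises and falls with SMIP004 and the largest with BTZ or CPT that passed were named. Some further genes (CASP6, CASP9, BIRC6, TNFRSF10B, TNFRSF1A, TNFRSF10A, FAS, TNFRSF10D, PIDD1 and the genes without a call) were named after their values were seen. Alternatives changed the scaling, the filter, the use of technical arrays, the samples and the threshold, and added a replicate block. The counts of list genes without the roscovitine samples, and the pairing of SMIP004 arrays by their descriptions, were chosen after seeing the data.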

Additional observations from a re-analysis of the deposited data

How the results depend on the processing

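Counts of member genes that passed kept within 1.5 times of their value under the other settings run, with these exceptions. At the study's threshold of 2-fold and an unadjusted p of 0.05, 3 members passed with BTZ, 2 with CPT and 0 with roscovitine against DMSO. With only the 2 groups compared in the model, 0 passed for roscovitine against DMSO, 3 for BTZ against roscovitine and 2 for CPT against roscovitine. When 1 sample was left out, the count ran from 5 to 6 for SMIP004, 5 to 6 for BTZ, 3 to 5 for CPT and 0 to 4 (both directions) for roscovitine against DMSO. It ran from 3 to 4 for SMIP004 against BTZ, 4 to 5 against CPT and 5 to 6 against roscovitine, from 1 to 4 for BTZ against CPT, 4 to 6 for BTZ against roscovitine and 3 to 6 for CPT against roscovitine. Scaling to the array median put the median change of all probes at -0.21 with BTZ and -0.29 with CPT, and the share of calls that were higher to 37.8% and 33.9%, from 50.2% and 50.2%, and to 31.8% from 47.1% with roscovitine. The share went from 49.3% to 67.4% for SMIP004 against BTZ and from 49.3% to 62.7% against CPT, and from 50.4% to 40% for BTZ and from 49.2% to 31.9% for CPT against roscovitine. Under this scaling the differences of SMIP004 from BTZ turned to 0.04 for CFLAR and 0.08 for TNFRSF21, neither of which had passed, and TNFRSF12A, CASP4, BIRC2 and CASP2 kept their direction with SMIP004, BTZ and CPT. With 1 sample left out, the second CASP2 probe ran from -0.39 to 0.00 between BTZ and roscovitine and from -0.23 to 0.16 between roscovitine and DMSO, and the brighter CASP2 probe from -0.23 to 0.04 for the latter. TNFRSF21 ran from -0.11 to 1.72 between roscovitine and DMSO and from -1.01 to 0.82 between CPT and roscovitine, and CASP4 from -0.32 to 0.13 between roscovitine and DMSO. None of these had passed with all samples. With only 2 groups in the model, the rise of TNFRSF12A with roscovitine had an adjusted p of 0.396.

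Same-numbered samples did not deviate together (correlations of -0.196 to 0.094 over 10 pairs of groups), so the numbers do not pair the samples. With the number as a replicate block, 403 of 10149 probes passed for roscovitine against DMSO in place of 867, and CASP2 lost its call between CPT and roscovitine (-0.40, adjusted p = 0.0544). The block added calls for TNFRSF21 between SMIP004 and roscovitine (adjusted p = 0.0485) and for the second CASP2 probe between CPT and both SMIP004 (adjusted p = 0.0351) and roscovitine (adjusted p = 0.0462), and changed no other call of a member.

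Of all probes, 867 passed for roscovitine against DMSO, 440 after median scaling, 0 with only the 2 groups in the model and 0 to 5716 with 1 sample left out. The 2-fold threshold gave 3165 with SMIP004, 3775 with BTZ and 3461 with CPT, in place of 5916, 6549 and 6408. Keeping only probes detected on all 12 arrays leaves out CFLAR and tests 6793 probes in place of 10149, so its counts cannot be set directly against the main counts. It gave 4176 in place of 6408 for CPT against DMSO and 4392 in place of 6628 for BTZ against CPT. It gave 4356 in place of 6665 for SMIP004 against CPT and 3107 in place of 4854 for CPT against roscovitine. With only 2 groups in the model, 3625 in place of 5648 passed for SMIP004, 3814 in place of 6084 for BTZ and 1748 in place of 4854 for CPT, each against roscovitine. Without SMIP004 sample 1 or 2, SMIP004 against BTZ gave 3237 or 3218 in place of 4973, and CPT against roscovitine gave 3196 without CPT sample 2. The cause of these shifts was not tested.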
